A study of Mus musculus with 24 samples.

Results

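Trp63, Sox4, Sox9, Sox10, Tbx3, Runx1 and Bcl11b encode transcription factors that set or hold cell fates in epithelia, and their levels were read across sorted mammary epithelial cells. The members were the probe sets whose only gene symbol was 1 of these 7, with the probe set of the highest mean kept for a gene with several. Each of the 7 genes had exactly 1 such probe set, so 7 of the 19937 genes measured were followed and nothing was left out by that choice.

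The cells came from mice of mixed FVB/C57BL6 background. Control mice carried Lgr5-creERT2 alone, a tamoxifen-inducible Cre recombinase driven from the stem cell gene Lgr5. Mutant mice carried Lgr5-creERT2 together with a PIK3CA H1047R transgene, an activated form of the catalytic subunit of phosphoinositide 3-kinase. Both genotypes received tamoxifen, and all glands were taken 4 weeks later from tissue labelled preneoplastic. The age of the mice is not given in the sources used here.

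Each sample pooled 2 to 3 mice in matched phases of estrus, and every group was sorted on 3 separate occasions. CD45-negative cells with low CD24 and no Sca1 formed the basal gate, and those with high CD24 formed the luminal gates, without or with Sca1. GFP marked cells with Lgr5 or the transgene. Basal cells were taken in both GFP states from both genotypes, giving control and mutant basal GFP-negative and GFP-positive groups. Luminal Sca1-negative and Sca1-positive cells were GFP-positive in mutant mice and GFP-negative in control mice, so genotype and GFP state cannot be told apart there. The GFP gate also differs with genotype in basal cells, because GFP can mark the transgene in mutant mice alone. RNA of 250 cells per sample was amplified and hybridised to a mouse array, giving 24 arrays in 8 groups of 3. In such bulk samples a lower level from fewer cells of a type and from less RNA per cell cannot be told apart.

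As background, the mammary epithelium has an inner luminal and an outer basal, or myoepithelial, layer, and the choice between them rests on a small set of transcription factors. p63, the product of Trp63, is the factor that maintains basal cells of stratified and glandular epithelia, where it drives keratins 5 and 14 and the proteins that anchor cells to the basement membrane. SOX proteins bind DNA through an HMG box. Sox9 and Sox10 belong to the E group of that family and are known from luminal progenitors, stem-like cells, cartilage and neural crest, and Sox4 belongs to the C group. Tbx3, a T-box repressor, is needed for the first mammary buds and is later found in hormone-sensing luminal cells. Runx1 binds DNA with its partner Cbfb and acts in blood formation and in the mammary epithelium. Bcl11b, a zinc-finger factor, is best known for committing precursors to the T cell fate.

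Upstream windows of 250 bases ending just before the transcription start were held by the RefSeq table (GRCm38.p6) for Sox4, Bcl11b and Runx1. Sox4 and Bcl11b are shown because they moved in opposite directions between mutant and control basal GFP-positive cells. The capitals mark matches to TGNGGT, searched on both strands as a loose form of the RUNX core. N stands for any base, so a match need not be a word that RUNX proteins bind.
Sox4, chr13:28953700-28953949, minus strand: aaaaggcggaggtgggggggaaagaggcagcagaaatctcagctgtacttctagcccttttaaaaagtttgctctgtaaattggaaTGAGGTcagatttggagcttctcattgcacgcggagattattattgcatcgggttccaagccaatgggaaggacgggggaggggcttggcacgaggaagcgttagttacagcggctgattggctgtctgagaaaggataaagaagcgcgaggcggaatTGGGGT
Bcl11b, chr12:108003415-108003664, minus strand: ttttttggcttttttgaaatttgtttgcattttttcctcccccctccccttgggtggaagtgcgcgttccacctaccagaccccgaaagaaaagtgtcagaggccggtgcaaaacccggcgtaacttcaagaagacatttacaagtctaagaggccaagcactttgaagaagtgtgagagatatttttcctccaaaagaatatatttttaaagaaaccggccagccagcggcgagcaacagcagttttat
The Sox4 window held 2 matches, TGAGGT from 164 to 159 bases before the start and TGGGGT from 6 to 1 base before it, and the Bcl11b window held 0. The TGNGGT pattern was found in 40.1% of the 32851 promoter windows in the table. Neither window held the SOX core ACAANG (36.3% of windows) or the T-box core AGGTGT (11.8% of windows). Runx1 had 2 windows, chr16:92826075-92826324 and chr16:92697330-92697579, both on the minus strand, and neither held any of these 3 patterns. Its 1 probe set does not separate the transcripts that start at these sites. No overlap between motifs arose, and a match is only a match of letters.

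The gates were checked first with keratins. Krt5 and Krt14, which basal cells make, had group means of 11.53 to 11.92 and 11.22 to 11.59 on the log2 scale in the 4 basal groups, and Krt18, a luminal keratin, had luminal group means of 12.59 to 12.77, while its basal group means were 9.63 to 11.09. Within the basal GFP-negative gate Krt18 read 10.93 to 11.19 on mutant arrays and 9.56 to 9.94 on control arrays (difference 1.32, adjusted p = 0.366 in limma), and the mean of 13 luminal markers was 7.37 to 7.52 and 6.82 to 7.02. Krt5 was also raised on all 3 mutant luminal Sca1-negative arrays, which read 8.63, 7.92 and 8.94, above the 4.93 to 5.47 of their controls. Among mutant luminal Sca1-positive arrays replicate 1 stood apart with a Krt5 level of 7.98, beside 5.18 and 6.28. Lgr5, whose promoter drives the Cre, read 9.14 to 10.0 on control basal GFP-positive arrays and 5.53 to 7.29 on mutant ones (difference -3.16, adjusted p = 7.95e-05), and Pik3ca differed by 1.09 there (adjusted p = 0.00435). Ptprc, which encodes the CD45 antigen used to remove leukocytes, had group means of 4.06 to 4.35, under the median of all gene values (4.60). Array medians spanned 4.39 to 4.55, and the control basal GFP-positive arrays had the lowest mean weight when limma estimated array quality (0.59). Every level below is the deposited log2 value of a probe set, and a difference of 1 is a change of 2 times.

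Trp63 split the arrays by layer. Its log2 level read 10.29, 10.05 and 9.53 on the control basal GFP-negative arrays and 9.93, 9.92 and 9.15 on the GFP-positive ones. In mutant mice the same fractions read 9.72, 10.23 and 10.24 and then 9.46, 9.80 and 9.89. The 4 basal means, 9.67 to 10.06, followed each other by less than the SD of 3 arrays, and arrays of neighbouring groups overlapped. Luminal levels lay far below, at 5.61, 5.27 and 5.24 in control Sca1-negative cells and 5.97, 6.52 and 6.91 in mutant Sca1-negative cells. Sca1-positive cells read 7.19, 5.51 and 5.14 in control mice and 5.78, 5.42 and 5.67 in mutant mice. The lowest basal array (9.15) was above the highest luminal array (7.19). That highest luminal array, control Sca1-positive replicate 1, gave its group the widest spread of any for this gene (SD 1.10), while its Krt5 (5.08) and Krt14 (6.74) stayed within the range of control luminal arrays.

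Sox4, a SOX factor expressed in many progenitor cells, was highest in mutant basal GFP-positive cells. It read 10.15, 10.40 and 9.71 there, against 9.34, 9.12 and 9.53 in the basal GFP-positive gate of control mice. Basal GFP-negative cells read 9.15, 8.92 and 9.11 in control mice and 9.14, 9.15 and 9.27 in mutant mice. Each mutant basal GFP-positive array was above all other 21 arrays, and the gap to the next group mean (0.76) exceeded the larger SD (0.35). Luminal Sca1-negative cells read 8.86, 8.89 and 8.68 in control mice and 9.17, 8.98 and 9.02 in mutant mice. Their Sca1-positive counterparts read 8.85, 8.66 and 7.92 and then 8.47, 8.92 and 8.75. These 4 luminal means, 8.48 to 9.06, reached no higher than the lowest basal mean of 9.06.

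Sox9 had its top level in the same cells as Sox4 but was not a basal gene otherwise. Mutant basal GFP-positive cells read 10.30, 10.43 and 10.14, above every other array. Control cells of that fraction read 9.74, 9.24 and 9.40. The lowest levels were those of basal GFP-negative cells, with 9.25, 8.91 and 8.66 in control mice and 8.95, 8.97 and 8.90 in mutant mice. Thus both the highest and the lowest group mean of Sox9 (10.29 and 8.94) were basal. Luminal Sca1-negative cells read 9.54, 9.35 and 9.69 in control mice and 9.26, 9.11 and 9.57 in mutant mice. Luminal Sca1-positive cells read 9.65, 9.87 and 9.55 and then 9.75, 9.71 and 9.72. The luminal means lay between 9.31 and 9.73, and from the second to the sixth rank neighbouring means did not differ beyond their SD.

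Sox10, the neural crest factor that also marks part of the mammary epithelium, fell in steps from basal through luminal Sca1-negative to luminal Sca1-positive cells. Basal GFP-negative cells read 7.96, 7.54 and 7.39 in control mice and 7.72, 7.31 and 7.61 in mutant mice. GFP-positive ones read 7.72, 7.26 and 7.63 and then 7.07, 6.94 and 7.35. The first 3 basal means differed by less than their SD. In the luminal Sca1-negative gate control cells read 6.70, 6.21 and 6.55 and mutant cells 6.99, 7.51 and 6.72. In the Sca1-positive gate control cells read 5.50, 5.22 and 4.57 and mutant cells 6.18, 5.51 and 5.96. Mutant luminal Sca1-negative cells (7.08 ± 0.40, SD, n = 3) thus stood level with mutant basal GFP-positive cells (7.12 ± 0.21), while the last 3 groups in the order had arrays that did not overlap with their neighbours. Krt5 was also raised on those mutant luminal Sca1-negative arrays (7.92 to 8.94). The part of basal marker genes in their Sox10 level was not tested.

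Tbx3 followed neither layer. Control luminal Sca1-positive cells read 8.07, 7.81 and 7.6, and mutant ones 7.08, 7.18 and 7.87. Control basal GFP-positive cells were as high, at 8.36, 7.37 and 7.51. These 3 groups came first, and neighbours among them overlapped. Mutant basal GFP-positive cells, at 6.60, 6.70 and 6.09, lay below all 3 of their control arrays. Basal GFP-negative cells read 6.85, 6.20 and 6.50 in control mice and 6.73, 6.95 and 7.08 in mutant mice. Luminal Sca1-negative cells read 7.01, 6.05 and 6.38 in control mice and 5.34, 5.62 and 6.60 in mutant mice. The mutant luminal Sca1-negative group had both the lowest mean (5.85) and the widest spread (SD 0.66).

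Runx1 was bright in all groups and had its lowest group means in luminal Sca1-negative cells. Control basal cells read 10.58, 10.56 and 10.18 without GFP and 10.92, 10.16 and 10.18 with it. Mutant basal cells read 9.69, 10.30 and 10.51 and then 10.21, 10.43 and 10.15. No neighbours among the 4 basal means (10.17 to 10.44) differed beyond their SD. Luminal Sca1-negative cells were lowest, with 9.70, 9.04 and 9.27 in control mice and 8.92, 9.31 and 9.53 in mutant mice. Luminal Sca1-positive cells lay between, with 9.96, 9.42 and 9.85 and then 9.93, 9.88 and 10.01.

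Bcl11b was the dimmest member, with a mean over the 24 arrays (5.21) above that of 60.75% of genes, and its whole range was 4.80 to 6.01. Control basal GFP-positive cells read 6.01, 5.80 and 5.52, which put each of them above all other arrays. GFP-negative basal cells read 5.06, 5.31 and 5.28 in control mice and 5.47, 5.43 and 5.15 in mutant mice. Mutant basal GFP-positive cells read 5.12, 5.21 and 5.10. All luminal arrays were at 5.49 or lower. The control Sca1-negative arrays read 5.49, 5.09 and 5.07 and the mutant ones 4.87, 5.09 and 4.90, while Sca1-positive arrays read 4.91, 5.12 and 4.80 and then 5.05, 5.0 and 5.20. Of 12 T cell markers measured, 11 had means under the median gene value in all 8 groups, and of 16 leukocyte markers 14 did.

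**Figure D1:**
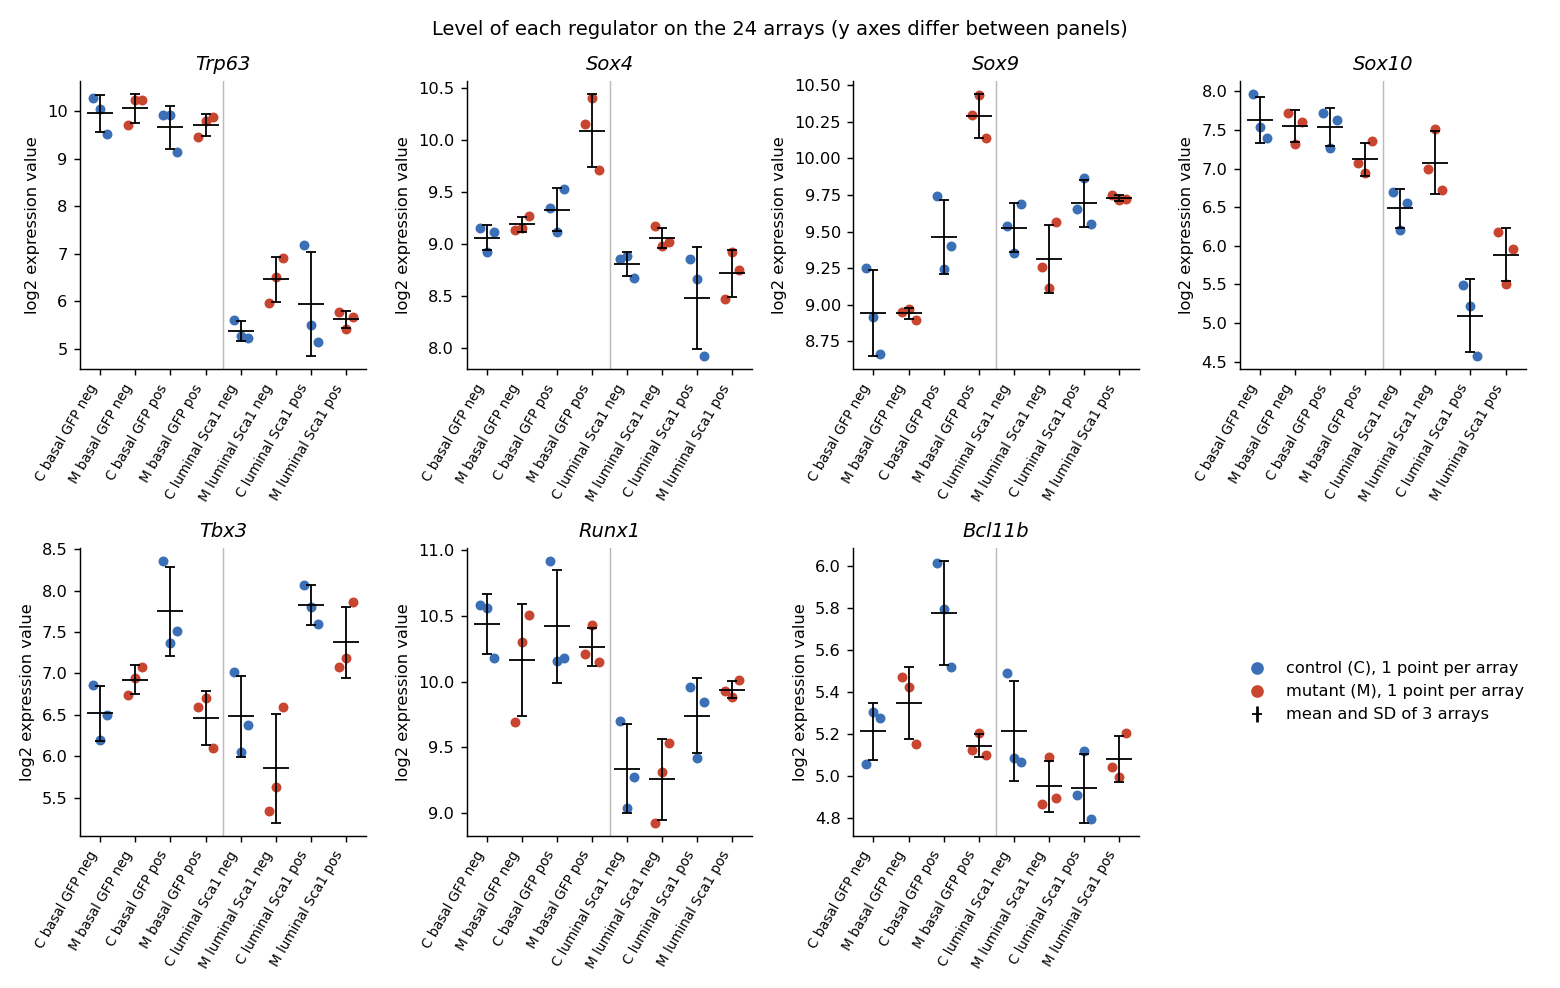
Deposited log2 level of each of the 7 regulators on each of the 24 arrays, by sorted group, with the mean and SD of 3 arrays as bars. C is control and M is mutant, the grey line parts basal from luminal groups, and each panel has its own y axis. Trp63 separates all basal from all luminal arrays, Sox4 and Sox9 peak in mutant basal GFP-positive cells, and Bcl11b peaks in control basal GFP-positive cells.

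The first comparison asked how luminal cells of control mice differed from basal GFP-negative cells. Trp63 fell by 4.58 ± 0.39 on the log2 scale (difference ± SE, 3 arrays a group, adjusted p = 2.22e-07 by limma with Benjamini-Hochberg adjustment) in Sca1-negative cells. It fell by 4.01 ± 0.39 in Sca1-positive cells (adjusted p = 6.38e-07). Sox10 fell by 1.14 ± 0.25 in Sca1-negative cells (adjusted p = 0.00523) and by 2.53 ± 0.25 in Sca1-positive cells (adjusted p = 7.69e-07). Runx1 fell by 1.10 ± 0.24 in Sca1-negative cells (adjusted p = 0.00493) and had a difference of -0.70 in Sca1-positive cells (adjusted p = 0.0637). Sox9 was higher than in basal cells, by 0.58 ± 0.15 in Sca1-negative (adjusted p = 0.0176) and 0.75 ± 0.15 in Sca1-positive cells (adjusted p = 0.00197). Tbx3 was higher by 1.31 ± 0.33 in Sca1-positive cells (adjusted p = 0.0117), and its difference was -0.04 in Sca1-negative cells.

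In each of these comparisons 4 of 7 members passed the test. Of all genes 9.83% passed for Sca1-negative cells (4.93% higher, 4.9% lower) and 13.1% for Sca1-positive cells (7.35% higher, 5.77% lower). The groups' arrays did not overlap for 5 and 6 members, against 24.7% and 29.2% of genes. The Sox9 call in Sca1-negative cells was lost without basal GFP-negative replicate 2 (adjusted p = 0.0528) or 3 (0.0937) or luminal replicate 3 (0.0835). Both Sox9 calls were lost when the compared groups alone were fitted (adjusted p = 0.156 and 0.0613). The Tbx3 call was lost without basal GFP-negative replicate 2 (0.0586) or luminal Sca1-positive replicate 1 (0.0528). Sox4 in Sca1-positive cells, at -0.58 (adjusted p = 0.063), passed without luminal replicate 1 (-0.77, adjusted p = 0.0194). With control basal GFP-positive cells as the reference instead, Sox9 differed by 0.06 and 0.23 and Tbx3 by -1.27 (adjusted p = 0.0186) and 0.08. Bcl11b differed by -0.56 (adjusted p = 0.0109) and -0.83 (adjusted p = 0.00025), and Sox4 by -0.85 in Sca1-positive cells (adjusted p = 0.00566).

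Of 20 other regulators of the basal layer, 7 were lower and 3 higher in control Sca1-negative cells, and 11 were lower and 1 higher in Sca1-positive cells. Snai2, a repressor that holds the basal state, differed by -4.56 and -4.63, and Id4, an inhibitor of helix-loop-helix factors, by -2.98 and -3.00. Of 23 other luminal regulators, 8 were higher and 1 lower in Sca1-negative cells and 11 higher and 2 lower in Sca1-positive cells, among them the ETS factor Ehf (5.93 and 4.68) and the coactivator Cited1 (4.35 and 5.60). Of 27 epithelial targets of p63, 20 were lower and 1 higher in Sca1-negative cells, with a median difference of -1.80 against 0.02 over all genes. Col17a1, a hemidesmosome collagen, differed by -3.75 and Lama3, a laminin chain of the basement membrane, by -3.81. In Sca1-positive cells 18 of these targets were lower and 3 higher (median -1.65 against -0.03).

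Mutant luminal cells were compared with mutant basal GFP-positive cells, since both were GFP-positive. Trp63 fell by 3.25 ± 0.39 in Sca1-negative cells (adjusted p = 1.36e-05) and by 4.09 ± 0.39 in Sca1-positive cells (adjusted p = 5.65e-07). Sox4 differed by -1.03 ± 0.20 (adjusted p = 0.00201) and -1.37 ± 0.20 (adjusted p = 8.70e-05). Sox9 was lower too, at -0.98 ± 0.15 (adjusted p = 0.000229) and -0.56 ± 0.15 (adjusted p = 0.0208). Runx1 fell by 1.01 ± 0.24 in Sca1-negative cells (adjusted p = 0.0107), and its difference in Sca1-positive cells was -0.32. Sox10 fell by 1.23 ± 0.25 in Sca1-positive cells (adjusted p = 0.00241), whereas in Sca1-negative cells its difference was -0.04 with a 95% interval from -0.57 to 0.48. Tbx3 in Sca1-positive cells had a difference of 0.91 (adjusted p = 0.104).

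In both comparisons 4 of 7 members passed, all lower in luminal cells. Of all genes 7.86% passed for Sca1-negative cells (3.62% higher, 4.24% lower) and 9.72% for Sca1-positive cells (4.73% higher, 4.99% lower). Arrays did not overlap for 5 and 6 members, beside 27% and 31.2% of genes. Runx1 missed the threshold without mutant basal GFP-positive replicate 2 (adjusted p = 0.0516) or luminal Sca1-negative replicate 1 (0.0685), and Sox9 in Sca1-positive cells missed it without basal replicate 1 (0.0619) or 2 (0.0992) or luminal replicate 2 (0.0644) or 3 (0.0617). The direction for Sox9 depended on the basal fraction: against mutant basal GFP-negative cells it was higher, by 0.37 in Sca1-negative (adjusted p = 0.152) and 0.79 in Sca1-positive cells (adjusted p = 0.00148), and Sox4 then differed by -0.13 and -0.47, neither past the threshold. Tbx3 differed by -1.07 in Sca1-negative cells against that fraction (adjusted p = 0.0483).

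Of the 27 p63 targets, 22 were lower and 1 higher in mutant luminal Sca1-negative cells (median -2.26 against 0.03 over all genes), and 21 were lower and 1 higher in Sca1-positive cells (median -2.24 against 0.04). Jag1, a Notch ligand, differed by -4.23 and -3.37. Foxa1, a factor of hormone-sensing cells, stood with the luminal regulators that were higher (2.79 and 5.40). That list gave 5 higher and 0 lower of 23 in Sca1-negative cells, and 9 higher and 2 lower in Sca1-positive cells. Of 18 genes that Sox10 drives in glia and melanocytes, 9 had means under the median gene value in every group. In the Sca1-negative gate 2 of the 18 were higher and 3 lower. Among them Erbb3, a receptor also made by luminal cells, differed by 3.66, and Ednrb, an endothelin receptor, by -2.75.

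**Figure D2:**
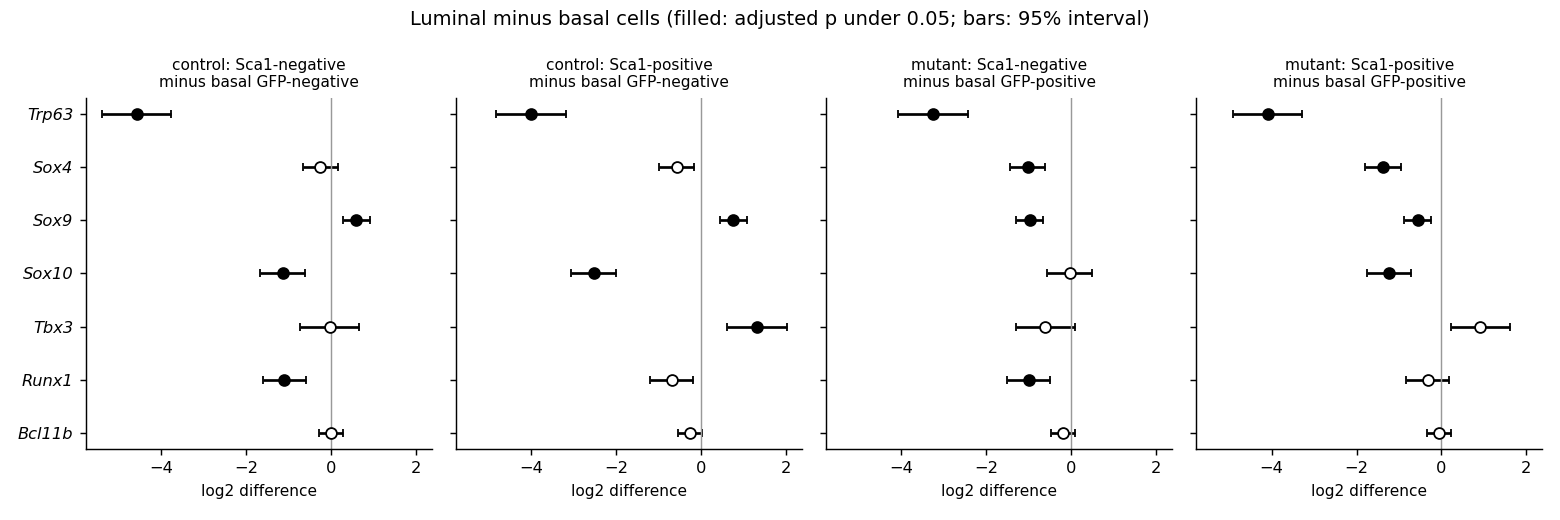
Log2 difference of each regulator between luminal and basal cells of control mice (reference basal GFP-negative) and of mutant mice (reference basal GFP-positive), with 95% intervals and filled points for an adjusted p under 0.05. Trp63 lies between -4.58 and -3.25 in all 4 panels, while Sox9 lies above 0 in the control panels and below 0 in the mutant panels, which use different basal fractions as reference.

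Sca1 divides luminal cells into a progenitor-rich negative and a hormone-sensing positive part, and Sox10 and Tbx3 moved in opposite directions across it. In Sca1-positive cells Sox10 fell by 1.39 ± 0.25 in control mice (adjusted p = 0.00273) and fell by 1.19 ± 0.25 in mutant mice (adjusted p = 0.00964). Beside the Sox10 fall in mutant mice, 4 of 14 basal markers were lower and 0 higher (median -0.79), with Krt5 at -2.02 (adjusted p = 0.0106) and Krt14 at -1.53 (adjusted p = 0.0504), and their part in it was not tested. Tbx3 was higher by 1.34 ± 0.33 in control mice (adjusted p = 0.0292) and by 1.52 ± 0.33 in mutant mice (adjusted p = 0.0126), a ratio of 2.54 and 2.88. Runx1 (0.68, adjusted p = 0.163) and Sox9 (0.41, adjusted p = 0.192) did not pass in mutant mice, nor did Trp63 (-0.84, adjusted p = 0.385). The difference of the mutant effect between both luminal gates passed for 0 of 7 members in limma (2 at an unadjusted p under 0.05) and for 0.161% of genes (0.0803% in each direction).

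For Sca1, 2 of 7 members passed in each genotype, against 3.69% of genes in control (2.08% higher, 1.61% lower) and 3.66% in mutant mice (1.81% higher, 1.85% lower), and arrays did not overlap for 2 and 6 members, against 22.7% and 20% of genes. The Tbx3 call was weak: in control mice it was lost without Sca1-negative replicate 2 (adjusted p = 0.134) or 3 (0.0828) or without any of the Sca1-positive replicates (0.109, 0.0707 and 0.0531), and in mutant mice without Sca1-negative replicate 1 (0.0839) or 2 (0.0593) or Sca1-positive replicate 3 (0.0865). Sox10 in mutant mice was lost without Sca1-negative replicate 2 (0.0607) or Sca1-positive replicate 2 (0.064), and fitting the compared groups alone ended the calls of Sox10 (0.0867 in control and 0.109 in mutant mice) and Tbx3 (0.0961 and 0.14). Of the 23 luminal regulators, 4 were higher and 3 lower in control Sca1-positive cells, and 6 higher and 2 lower in mutant ones. Esr1, the estrogen receptor, differed by 1.60 and 2.14, and Myb by 2.06 and 1.22. Kit, a receptor of luminal progenitors, differed by -4.63 and -2.78. Of the 20 other basal regulators, 5 were lower and 1 higher in control and 1 lower in mutant Sca1-positive cells, with Nfib, a nuclear factor I family member, at -1.23 and -1.26.

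GFP-positive basal cells were next set against GFP-negative basal cells of the same genotype. In control mice, where GFP marks Lgr5, Bcl11b alone of the members passed, higher by 0.56 ± 0.14 (adjusted p = 0.0493). Tbx3 was 1.23 higher (adjusted p = 0.0759) and Sox9 0.52 higher (adjusted p = 0.0988), both short of the threshold. Lgr5 itself was 1.40 higher and also fell short (adjusted p = 0.0898). In mutant mice Sox9 rose by 1.35 ± 0.15 (adjusted p = 2.84e-05), a ratio of 2.55, and Sox4 by 0.90 ± 0.20 (adjusted p = 0.0173), a ratio of 1.87. There Bcl11b had a difference of -0.21, Tbx3 of -0.46 and Lgr5 of -1.04 (adjusted p = 0.249), none past the threshold. Trp63 did not pass in either genotype (-0.29 and -0.34), with 95% intervals from -1.11 to 0.53 and from -1.16 to 0.48.

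Against these counts of 1 and 2 members, 1.25% of all genes passed in control mice (0.507% higher, 0.747% lower) and 2.51% in mutant mice (1.77% higher, 0.737% lower). Arrays did not overlap for 2 members in control and 3 in mutant mice, beside 15.6% and 20.2% of genes. The Bcl11b call in control mice was lost without GFP-negative replicate 1 (adjusted p = 0.164), 2 (0.0765) or 3 (0.0709) or GFP-positive replicate 1 (0.154), while without GFP-positive replicate 2 Sox9 (0.63, adjusted p = 0.0322) and Tbx3 (1.42, adjusted p = 0.0328) passed as well. Sox4 in mutant mice was lost without GFP-negative replicate 1 (0.0574) or 2 (0.0591) or GFP-positive replicate 1 (0.0719) or 2 (0.109). Fitting the compared groups alone ended the calls of Bcl11b in control (0.482) and Sox4 in mutant mice (0.123). Of the 27 p63 targets, 4 were higher and 0 lower in mutant GFP-positive cells, although Trp63 itself did not pass. These were Jag1 (2.31), the growth factor Nrg1 (3.25), the desmosomal cadherin Dsc3 (3.24) and the zinc-finger factor Bnc1 (1.07). In control mice 0 of the 27 passed. Beside the Bcl11b difference in control mice, the mean of the 12 T cell markers was 3.97 to 4.11 on GFP-negative arrays and 4.15 to 4.22 on GFP-positive ones, and their part in that result was not tested. Genes with mean levels of 3.98 to 4.66 had a median difference of 0.10 between the same arrays. Ehf (3.55) and Myb (1.0) were the luminal regulators that rose in mutant GFP-positive cells, 2 of 23.

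Genotype was compared within each of the 4 sorted populations, to ask which regulators differed between mutant and control mice. The basal GFP-negative gate leaves out the cells that GFP marks, with Lgr5 or the transgene. Pik3ca differed by -0.26 there (adjusted p = 0.901 in limma), so a switched-on transgene was not shown in that gate. Members passed in basal GFP-positive cells, and 0 of 7 passed in each of the other 3 populations. Sox9 was higher in mutant basal GFP-positive cells by 0.83 ± 0.15 (adjusted p = 0.0027), a ratio of 1.77, and Sox4 by 0.76 ± 0.20 (adjusted p = 0.0219), a ratio of 1.69. Tbx3 fell by 1.28 ± 0.33 (adjusted p = 0.0211), a ratio of 0.411, and Bcl11b fell by 0.63 ± 0.14 (adjusted p = 0.00781), a ratio of 0.646. Lgr5 fell by 3.16 between the same arrays, and its part in these results was not tested. Trp63 differed by 0.05 (95% interval -0.77 to 0.87), Sox10 by -0.42 (adjusted p = 0.257) and Runx1 by -0.16 (adjusted p = 0.675).

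The 4 members that passed are set against 12.6% of all genes (4.74% higher and 7.81% lower), and the 4 whose arrays did not overlap against 35.4%. The median gene differed by -0.10 here, and genes of the level range that holds Bcl11b (4.66 to 6.33) by -0.09, while brighter genes, the range of the other 6 members, had a median of 0.29. The control arrays of this comparison are the same as in the comparison of GFP states in control mice, and the mutant arrays the same as in that of mutant mice. Against control basal GFP-negative cells instead, mutant basal GFP-positive cells had more Sox9 (1.35) and Sox4 (1.03), while Tbx3 (-0.05, adjusted p = 0.961) and Bcl11b (-0.07, adjusted p = 0.847) no longer differed past the threshold. A fit of these 2 groups alone called none of the 4 (adjusted p from 0.0902 for Sox9 to 0.154 for Sox4). Tbx3 was lost without control replicate 1 (-0.98, adjusted p = 0.0876) or mutant replicate 3 (-1.10, adjusted p = 0.0765), and Sox4 without control replicate 1 (0.0519) or mutant replicate 1 (0.0707) or 2 (0.0952) and after quantile normalization (0.50, adjusted p = 0.171).

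**Figure D3:**
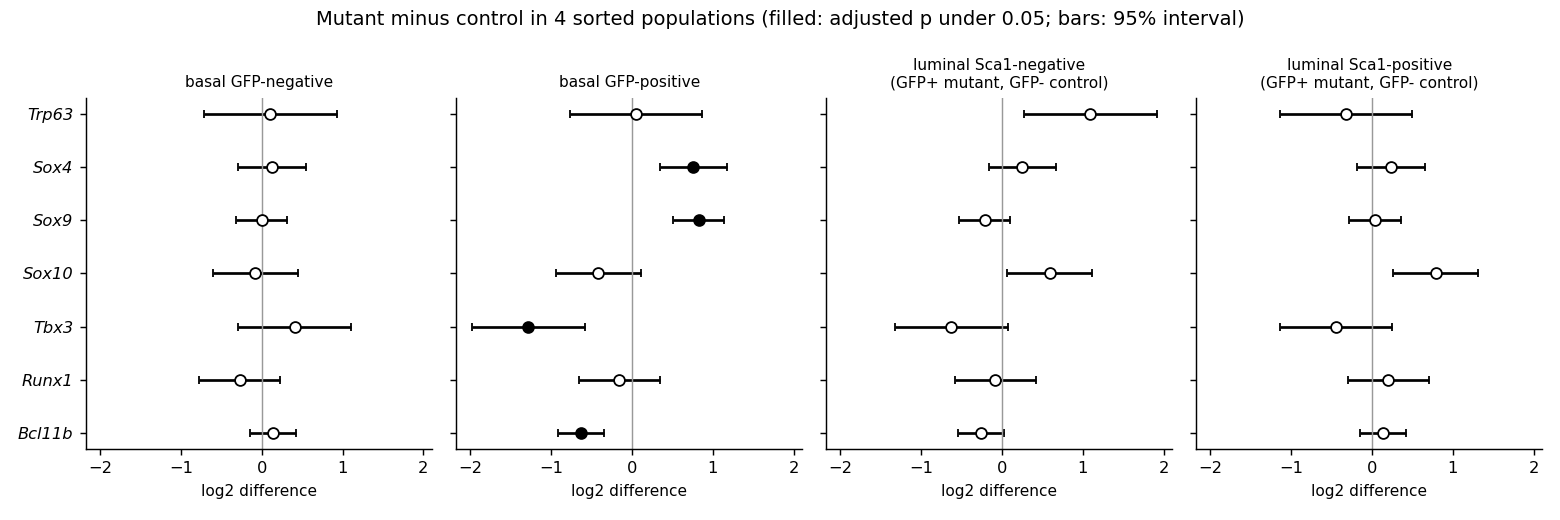
Log2 difference of each regulator between mutant and control cells in the 4 sorted populations, with 95% intervals and filled points for an adjusted p under 0.05. In basal GFP-positive cells Sox4 (0.76) and Sox9 (0.83) lie above 0 and Tbx3 (-1.28) and Bcl11b (-0.63) below it, and no point is filled in the other 3 panels.

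Most genes of the lists around these regulators did not pass in basal GFP-positive cells, where 12.6% of all genes did. In that fraction 5 of the 27 p63 targets passed as higher in the mutant and 1 as lower. The median difference of these targets was 0.41, against -0.10 over all genes and 0.29 over genes with mean levels of 6.33 to 13.26. The higher targets included Nrg1 (3.30), Jag1 (2.75), the basal keratin Krt15 (2.63) and the giant cadherin Fat2 (2.36). Of the 20 other basal regulators 1 was higher, Tcf4 (1.52), and 3 were lower. Of the 23 luminal regulators 4 were higher and 1 lower, with Ehf at 4.70 and the alveolar factor Elf5 at 3.22. Of 32 paralogs and partners of the members, 5 were lower and 0 higher, beside 7.81% of all genes lower, with Sox3 at -0.59 and Sox6 at -0.33, and 15 of the 32 had means under the median gene value in every group. Of 15 cartilage targets of Sox9, 1 was higher, the collagen Col11a1 (1.34), and 2 were lower. Among these 15, 6 had means under the median gene value in every group. Beside the fall of Bcl11b, the mean of the 12 T cell markers was 4.15 to 4.22 on control basal GFP-positive arrays and 3.98 to 4.01 on mutant ones. Their median difference was -0.19, and Lat, an adaptor of T cell signalling, was called (-0.24). Genes with mean levels of 3.98 to 4.66 also had a median difference of -0.19 in this comparison. The mean of the 16 leukocyte markers was 4.27 to 4.38 on those control arrays and 4.08 to 4.16 on the mutant ones, with Csf1r called (-0.30). The part of these markers in the Bcl11b result was not tested.

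In basal GFP-negative cells 0 of 7 members passed in limma, 0 had an unadjusted p under 0.05, and no member's arrays separated the genotypes, against 0.0602% of genes called (0.0451% higher, 0.015% lower) and 10.5% not overlapping. The largest difference was that of Tbx3 (0.41, 95% interval -0.29 to 1.10). Sox9 differed by less than 0.01 there, with an interval from -0.32 to 0.32. The difference between the mutant effects in GFP-positive and GFP-negative basal cells was tested as such. It was 0.83 ± 0.21 for Sox9 (adjusted p = 0.0768), -0.77 ± 0.19 for Bcl11b (adjusted p = 0.0648) and -1.69 ± 0.47 for Tbx3 (adjusted p = 0.105), so 0 of 7 members passed, while 4 had an unadjusted p under 0.05 and 1.07% of genes passed (0.772% higher, 0.301% lower). Sox9 passed it without control basal GFP-negative replicate 3 (0.97, adjusted p = 0.0338) or GFP-positive replicate 1 (0.97, adjusted p = 0.0325). Bcl11b passed without control GFP-positive replicate 3 (-0.90, adjusted p = 0.0291) or mutant GFP-negative replicate 3 (-0.87, adjusted p = 0.049), and Tbx3 without control GFP-positive replicate 2 (-1.88, adjusted p = 0.0494).

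Luminal cells gave 0 calls among the members in either gate, where 0.727% of genes passed for Sca1-negative (0.557% higher, 0.171% lower) and 0.777% for Sca1-positive cells (0.401% higher, 0.376% lower). In Sca1-negative cells all 3 mutant arrays were above all 3 control arrays for Trp63 (1.09 ± 0.39, unadjusted p = 0.0119, adjusted p = 0.279 in limma), Sox10 (0.59, adjusted p = 0.38) and Sox4 (0.25, adjusted p = 0.699), where 18.1% of genes did not overlap. In Sca1-positive cells the same held for Sox10 (0.79 ± 0.25, unadjusted p = 0.00556, adjusted p = 0.246), where 15.7% of genes did not overlap. For Trp63 in that gate the difference was -0.32, and 0.30 without control replicate 1. Tbx3 had negative differences in both gates (-0.63 and -0.45), neither past the threshold.

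Beside the Trp63 difference in Sca1-negative cells, 5 of 14 basal markers were higher in the mutant and 0 lower (median 0.75 against -0.04 over all genes), and their mean was 6.86 to 7.23 on mutant arrays and 5.62 to 5.82 on control arrays. Krt5 was higher by 3.29, Krt14 by 2.46 and Sparc, a matrix protein, by 3.64. Of the 27 p63 targets 3 were higher and 1 lower: Krt5, Krt14 and Nrg1 (2.75) rose and the receptor Fgfr2 fell by 1.11. Of the 20 other basal regulators 0 were higher and 1 was lower, Barx2 (-2.24). The defining basal genes did not reach the basal level, since Krt5 in these cells differed by -3.42 and Trp63 by -3.25 from mutant basal GFP-positive cells. The part of basal marker genes in the Trp63 difference, and in the Sox10 difference of the same gate, was not tested.

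**Figure D4:**
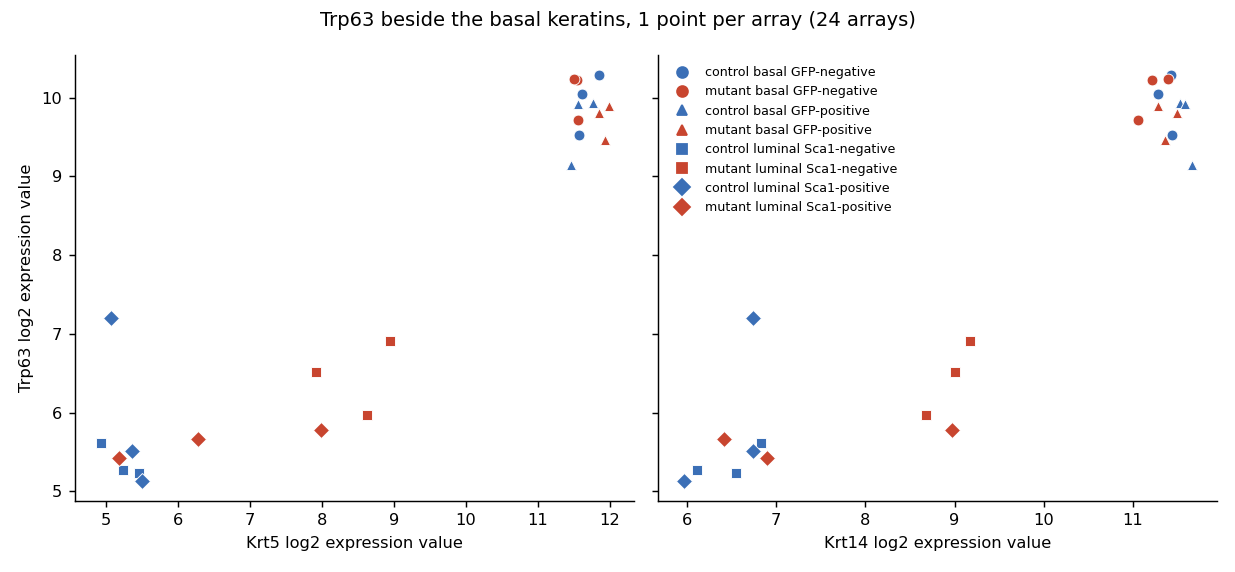
Level of Trp63 against that of Krt5 (left) and Krt14 (right) on each of the 24 arrays, all as log2 values, with colour for genotype and shape for the sorted group. The 12 basal arrays lie at the upper right, the mutant luminal Sca1-negative arrays lie between the layers with Krt5 at 7.92 to 8.94, and control luminal Sca1-positive replicate 1 has Trp63 at 7.19 with Krt5 at 5.08.

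The difference of the mutant effect between luminal Sca1-negative and basal GFP-positive cells passed for 1 member, Sox9, at -1.04 ± 0.21 (adjusted p = 0.0214), with 1.03% of genes called (0.381% higher, 0.647% lower). Its mutant effect was 0.83 in basal GFP-positive and -0.21 in luminal Sca1-negative cells. The call was lost without control basal GFP-positive replicate 3 (adjusted p = 0.0502), control luminal replicate 3 (0.0646), mutant basal GFP-positive replicate 2 (0.0633) or mutant luminal replicate 2 (0.0619). Sox10 had a difference of 1.01 in the other direction (adjusted p = 0.246) and Trp63 of 1.04 (adjusted p = 0.478).

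Over the 12 pairs of groups, Sox9 was called in 6, Sox10 in 5, Trp63, Sox4 and Tbx3 in 4 each, and Runx1 and Bcl11b in 2 each. Trp63, Sox10 and Runx1 were called lower alone, always in luminal against basal or Sca1-positive against Sca1-negative cells. The genes whose levels followed a member most closely over the 24 arrays were found by Pearson correlation, given as a description. The arrays share their groups, and for Trp63 they form a basal and a luminal cluster. Trp63 was followed by Dll1, a Notch ligand (r = 0.974), Oxtr, the oxytocin receptor of myoepithelium (0.973), and Snai2 (0.972). Sox10 was followed by Plekhb1 (0.937), Pdlim3 (0.931) and Tmem47 (0.929), and Runx1 by Ston2 (0.891), the caveolar protein gene Cav1 (0.876) and Lgals9, a galectin gene (0.861). The closest genes to Sox4 were Arhgef40 (0.894), Jmjd1c (0.874) and the basement membrane collagen gene Col4a5 (0.859), all highest in mutant basal GFP-positive cells. Lratd1 (0.838), Pik3r3 (0.830), which encodes a regulatory subunit of phosphoinositide 3-kinase, and Sdc1 (0.804), a cell surface proteoglycan gene, came closest to Sox9 and were also highest there. Tbx3 was followed by the immediate early gene Fosb (0.833), Man1a (0.819) and Gcnt2 (0.769). Bcl11b was followed by Cd40lg (0.885), Apbb1 (0.876) and Clstn3 (0.854). Of these, Cd40lg had group means of 3.28 to 3.56 and Clstn3 of 3.81 to 4.09, both under the median gene value in every group. With group means removed, Tbx3 and Runx1 had r = 0.715 over the 24 arrays (0.459 before), and Sox9 and Tbx3 had 0.632 (0.217 before). These were the 2 highest values among all pairs of members. Every pair had a positive r then, from 0.041 for Sox4 and Runx1 upward. The share of positive pairs among other genes was not computed. The part of shifts shared by many genes of an array was not tested.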

How the data were processed

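The 24 samples are mouse mammary cells in 8 sorted groups of 3, and 1 deposited table holds a log2 expression value per probe set and array. Per the submitters' processing notes the authors used affy, with no version or role given. Background correction, normalization and summarization are not given in the sources used here, and the log2 scale was read from the deposited values (2.59 to 13.54). Of 34760 probe sets, 21640 had 1 gene symbol, 1321 several and 11799 none. The gene kept its probe set of highest mean, leaving 19937 genes.

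The reanalysis used limma 3.58.1 in R 4.3.3: 1 fit of 8 group means over 24 arrays (16 residual degrees of freedom), 12 pairs of groups and 3 differences of effects, two-sided, with Benjamini-Hochberg adjustment over all genes within a comparison and a threshold of 0.05. Bounds printed as intervals are 95% intervals of that fit. The number of arrays limits the precision. On simulated data the fit recovered 16 to 56% of genes changed 1.5-fold and 52 to 76% of those changed 2-fold over the 15 comparisons. Genes named are the 7 members, up to 4 called genes of smallest p per list, gate genes (Krt5, Krt14, Krt8, Krt18, Pik3ca, Lgr5, Ptprc) and the 3 genes most correlated with a member. Lists and members were chosen with earlier results of these data known. Alternatives were quantile normalization, dim genes left out, array weights, a variance trend, replicate block, the compared groups alone, other references and leaving out arrays. Using the other basal fraction as reference for luminal cells was added after seeing the data. The mouse Pik3ca probe set may or may not read the transgene, which the labels do not say.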

Additional observations from a re-analysis of the deposited data

Results flagged for a closer look

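The mutant effect on Sox9 was called as different between basal GFP-positive and luminal Sca1-negative cells. In basal GFP-positive cells Sox9 was 0.83 higher in the mutant on the log2 scale, and in luminal Sca1-negative cells its difference was -0.21. The difference of these effects, tested as a limma contrast over 24 arrays, was -1.04 ± 0.21 (adjusted p = 0.0214). It was 1 of 3 such differences computed for each of the 7 genes, and no other member passed in any of them. The call held in 14 of 19 alternatives, with adjusted p in limma up to 0.0957. Genes with mean levels of 6.33 to 13.26 had a median of -0.13 in this contrast. Luminal mutant cells were GFP-positive and their controls GFP-negative, so genotype and GFP state cannot be told apart there.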

How the results depend on the processing

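The 3 arrays a group limit every comparison, and 250 cells a sample limit what dim genes such as Bcl11b can show. Trp63 kept its call between layers in all alternatives run, as did Sox10 in control mice and in mutant Sca1-positive cells and Runx1 in control Sca1-negative cells. Of 1603 values of members under alternatives, 1459 kept direction and call, 63 lost a call, 18 gained one and 63 changed sign. Most of these values belong to results not called in the fit reported, which could not lose a call. Among called results, Sox9 for GFP in mutant basal cells held in 14 of 14 alternatives. Sox4 for genotype in basal GFP-positive cells held in 9 of 14, and Bcl11b for GFP in control basal cells in 5 of 13. Where only the compared groups were fitted, 0 members were called for genotype in basal GFP-positive cells and for GFP in control basal cells. Nor was any called for Sca1 in either genotype or for the difference of mutant effects between luminal Sca1-negative and basal GFP-positive cells. For GFP in mutant basal cells 1 was called, and Sox9 lost its call in both comparisons of control luminal with basal cells. Fewer arrays then estimate the spread, and the part of this in the lost calls was not tested. With control basal GFP-negative arrays as the reference for mutant basal GFP-positive cells, 2 were called and Trp63 differed by -0.24. For GFP in control basal cells, leaving out dim genes, array weights and a variance trend each gave 0 calls and quantile normalization 3, and for Sca1 in control mice quantile normalization gave 1.

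The replicate block changed no count of members called (4 in the genotype comparison of basal GFP-positive cells with and without it) and moved no count over all genes by over 1.5 times. Samples with the same replicate number had deviations from group means that correlated at a median of 0.027 over 84 pairs (-0.0823 to 0.185, 6 over 0.1). Those with different numbers had a median of -0.0167 over 168 pairs (-0.139 to 0.116, 1 over 0.1), so samples of the same number were slightly more alike. The fit reported did not pair samples by these numbers, and whether the numbers pair the samples was not settled.

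Leaving out 1 array at a time gave 2 to 4 calls for genotype in basal GFP-positive cells, 0 to 3 for GFP in control and 1 to 2 in mutant basal cells, 1 to 2 for Sca1 in control and 0 to 2 in mutant mice, and 0 to 1 for the differences of mutant effects of basal GFP-positive cells against basal GFP-negative and luminal Sca1-negative cells. Counts over all genes also moved by over 1.5 times. For genotype they ran from 234 to 3979 in basal GFP-positive cells (2504 in the fit reported), 0 to 32 in GFP-negative ones (12), 34 to 203 in luminal Sca1-negative (145) and 8 to 221 in Sca1-positive cells (155). For GFP they ran from 0 to 1126 in control (250) and 191 to 788 in mutant mice (500), and for Sca1 from 311 to 831 (735) and 319 to 1052 (729). Luminal against basal cells gave 1045 to 2188 (1960) and 1692 to 4002 (2616) in control mice. The 3 differences of effects gave 53 to 588 (214) between basal fractions, 5 to 60 (32) between luminal gates and 141 to 402 (205) between luminal Sca1-negative and basal GFP-positive cells. Without control basal GFP-positive replicate 2, the count for genotype in basal GFP-positive cells was the highest, 3979.

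Signs changed for small differences and for some larger ones, such as Sox9 in mutant luminal cells, and the cause was not tested. Quantile normalization gave -0.20 for Trp63 and genotype in basal GFP-positive cells, 0.0628 for Sox10 and 0.11 for Runx1 and GFP in control basal cells, 0.0569 for Tbx3 in control luminal Sca1-negative against basal cells, -0.0856 for Runx1 in the difference of mutant effects between basal fractions and 0.17 for Sox4 in that between luminal gates. Array weights gave 0.0260 for Runx1 and GFP in control basal cells, 0.0257 for Sox9 and genotype in basal GFP-negative cells, and 0.0079 for Tbx3 and -0.0340 for Bcl11b in control luminal Sca1-negative against basal cells. With the other basal fraction as reference, an alternative chosen after seeing the data, Bcl11b differed by -0.56 in control luminal Sca1-negative cells. Sox9 then differed by 0.37 and 0.79 in mutant luminal Sca1-negative and Sca1-positive cells. In the fit reported these Sox9 differences were -0.98 and -0.56, and both were called. Without 1 array the following ranges crossed 0. For genotype they were -0.21 to 0.18 for Trp63 and -0.29 to 0.0931 for Runx1 in basal GFP-positive cells, and -0.11 to 0.28 for Trp63, -0.14 to 0.15 for Sox9 and -0.20 to 0.0838 for Sox10 in basal GFP-negative cells. In luminal Sca1-negative cells the range was -0.23 to 0.10 for Runx1, and in Sca1-positive cells -0.73 to 0.30 for Trp63, -0.0422 to 0.42 for Sox4 and -0.0334 to 0.12 for Sox9. For GFP they were -0.21 to 0.0727 for Sox10 and -0.27 to 0.11 for Runx1 in control and -0.14 to 0.27 for Runx1 in mutant basal cells. Luminal Sca1-negative against basal cells gave -0.30 to 0.18 for Tbx3 and -0.14 to 0.0750 for Bcl11b in control and -0.26 to 0.13 for Sox10 in mutant mice, and Sca1 in control mice -0.0494 to 0.98 for Trp63. Differences of mutant effects gave -0.31 to 0.16 for Trp63 and -0.12 to 0.37 for Runx1 between basal fractions, -0.29 to 0.17 for Sox4, -0.0637 to 0.42 for Sox10 and -0.0855 to 0.55 for Tbx3 between luminal gates, and -0.17 to 0.26 for Runx1 between luminal Sca1-negative and basal GFP-positive cells.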
